A study of Mus musculus with 6 samples.

Results

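Nephronectin and 9 other glycoprotein genes of the basement membrane were followed in immortalized mouse keratinocytes with and without a human α3 integrin subunit. The 10 genes were Npnt, Egfl6, Nid1, Nid2, Hspg2, Agrn, Fras1, Frem1, Frem2 and Tinagl1, taken by symbol from the 49315 genes counted. They were chosen by family and by their level per library, in read counts scaled to library size (CPM), in 3A against Control, with earlier results of this comparison known. Their differences between the groups are therefore given as a description, without p-values. Where members called by a test are counted, nothing is read from the counts.

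The 3A group was the line MK-546-ha3A (MK-/-:ha3), in which human α3 was put back into the α3-deficient cells. The Control group was its parent line MK-546 (MK-/-), which has no α3 integrin. All the cells of both groups lack the mouse α3 protein, are immortalized and come from skin, and were grown untreated on collagen-coated dishes in low calcium medium. No source used here names the promoter that drives human α3 or the way the cells were immortalized. Each group was 1 cell line with 3 libraries (3A 1 to 3, Control 1 to 3), so α3 and the descent of the line cannot be told apart. The labels do not say whether the libraries came from separate cultures, so the p-values below cover the spread among these 6 samples, and that spread may be technical.

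The basement membrane is the thin matrix sheet on which epithelial cells sit, built from a laminin network and a type IV collagen network. Nidogens and the heparan sulfate proteoglycans perlecan (Hspg2) and agrin (Agrn) bind these networks and hold them together. Nephronectin (Npnt) and its paralog Egfl6 are secreted proteins with EGF repeats and a MAM domain, and nephronectin is best known as a ligand of integrin α8β1. FRAS1, FREM1 and FREM2 form a complex that anchors embryonic epidermis to dermis, and Tinagl1 encodes a secreted, cathepsin-like matrix protein without protease activity. Integrin α3β1 is one of the receptors through which basal keratinocytes bind laminin-332.

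Npnt and Egfl6 were the members whose levels were farthest apart between the groups, and Tinagl1 had the highest level per length in both. Their promoter sequences are shown for that reason. Each is the 250 bases before the start in the RefSeq table (GRCm38.p6), 5′ to 3′ on the gene's own strand, and capitals mark matches to any of 5 short motifs. The motifs, searched on both strands, were the AP-1 site TGANTCA, the TATA box with the letters TATAAA, the CCAAT box, spelled as its name, the GC box GGGCGG and the TEAD site CATTCC. N stands for any base, and the match to TGANTCA in the Tinagl1 window read TGAATCA. No matches overlapped in these windows.
Npnt, chr3:132950292-132950541, minus strand: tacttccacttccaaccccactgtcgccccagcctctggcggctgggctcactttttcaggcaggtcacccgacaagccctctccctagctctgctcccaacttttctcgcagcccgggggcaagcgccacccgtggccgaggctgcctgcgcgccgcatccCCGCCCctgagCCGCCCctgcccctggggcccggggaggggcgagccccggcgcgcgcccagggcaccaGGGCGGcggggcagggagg
Egfl6, chrX:166585717-166585966, minus strand: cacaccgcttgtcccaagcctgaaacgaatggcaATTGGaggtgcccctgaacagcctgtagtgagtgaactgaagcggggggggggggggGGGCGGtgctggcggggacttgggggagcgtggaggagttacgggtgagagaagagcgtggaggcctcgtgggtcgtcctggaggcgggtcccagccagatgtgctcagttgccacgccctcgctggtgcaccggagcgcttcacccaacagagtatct
Tinagl1, chr4:130175123-130175372, minus strand: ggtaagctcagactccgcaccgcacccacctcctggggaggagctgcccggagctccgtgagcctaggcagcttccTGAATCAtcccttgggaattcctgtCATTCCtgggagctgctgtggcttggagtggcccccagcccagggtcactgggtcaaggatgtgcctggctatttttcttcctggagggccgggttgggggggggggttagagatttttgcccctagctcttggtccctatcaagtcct
The Npnt window held 3 GC boxes, the nearest ending 14 bases before the start, and no match to the other 4 motifs. The Egfl6 window held 1 GC box and 1 CCAAT box, and the Tinagl1 window 1 AP-1 site and 1 TEAD site. Of all 32851 windows of this length in the table, 32.7% held a GC box, 33.8% a CCAAT box, 6.75% an AP-1 site, 12.6% a TEAD site and 12.4% a TATA box. The GC content was 74.0% for Npnt, 64.8% for Egfl6 and 60.8% for Tinagl1, against a median of 52.4% over all windows. RefSeq lists a second start for Npnt, 477 bases downstream, whose window held no match to the 5 motifs. It also lists a second start for Tinagl1, 320 bases downstream, whose window held 4 GC boxes and no AP-1 site, TEAD site or other match. The 20 bases from the printed Tinagl1 start occurred in 1 annotated transcript of the gene, and those from the second start in 3. A match here is a match of letters and does not show that a factor binds. The table held a window for 8 of the 10 members.

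The 6 libraries held 25634204 to 36245240 counts, and every 3A library held more than any Control library (34177002 or more against 30919348 or fewer). Control 1 stood apart from the other Control libraries, with r = 0.957 and 0.953 across genes against 0.988 between Control 2 and Control 3. It was about as close to 3A 2 and 3A 3 (r = 0.9554 and 0.9515) as to its own group. Control 2 and Control 3 had r = 0.9096 to 0.9155 with 3A 2 and 3A 3. To a lesser degree 3A 1 stood apart from the other 3A libraries, with r = 0.985 and 0.982 against 0.994 between 3A 2 and 3A 3, and across genes its deviations went with those of Control 2 and Control 3 (r = 0.486 and 0.537). For the members and the genes that work with them, values without these libraries stand beside the results that they move. The calls of cell type markers and of neighbouring genes are given for all 6 libraries only. Itga3, the gene altered in these lines, had 80.4, 70.2 and 57.5 CPM in 3A and 31.9, 41.7 and 45.1 CPM in Control. Human α3 reads may be counted on the mouse gene and the deleted exons are not resolved, so these values check neither the deletion nor the transgene. No pair of replicates agreed within sampling noise (chi-square per degree of freedom of at least 14.5). The 7 keratinocyte markers were abundant in both groups and summed to 6273 to 8170 CPM in 3A and to 8519 to 10410 CPM in Control. Most of the sum came from the keratin genes Krt5 and Krt14, which lay lower in every 3A library but were not called (edgeR adjusted p = 0.131 and 0.219). Trp63 was called lower (edgeR adjusted p = 0.0491) and Col17a1 was not (0.0757), while Itgb4, Dsp and Cdh1 overlapped between the groups. Of 6 fibroblast markers 5 averaged under 1 CPM, Lum had 0 counts in all libraries, and the list summed to 1.84 to 2.98 CPM in 3A and 1.91 to 2.85 CPM in Control. The 4 melanocyte markers summed to 0.602 to 0.752 CPM in 3A and 1.27 to 1.68 CPM in Control, nearly all of it from Pmel (called lower, edgeR adjusted p = 0.0436), with Dct and Tyr at 0 counts. The 4 smooth muscle and pericyte markers summed to 0.334 to 0.586 CPM in 3A and 1.05 to 2.22 CPM in Control. Among them Myh11 had 7, 4 and 4 counts in 3A and 13, 27 and 17 in Control and was called lower (edgeR adjusted p = 0.0221). Myh11 passed the low-count filter only through its Control libraries, so its call follows from the filter in part and supports nothing here. The 4 endothelial markers summed to 0.418 to 0.946 CPM in 3A and 0.412 to 0.467 CPM in Control, and the 3 Schwann cell markers to 0.172 to 0.879 CPM in 3A and 0.602 to 1.54 CPM in Control. The 4 immune markers summed to 11.2 to 14.6 CPM in 3A and 14.0 to 22.9 CPM in Control, nearly all of it from Cd68 and Csf1r. The part of these marker differences in the results below was not tested.

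Only 5 of the 10 members had enough counts for the test across all genes: Npnt, Egfl6, Hspg2, Agrn and Tinagl1. Per kilobase of annotated exon, the order of mean levels in 3A was Tinagl1 (23.6 CPM per kb), Agrn (12.5), Npnt (4.68), Hspg2 (2.54) and Egfl6 (0.370). In Control the order was Tinagl1 (19.5 CPM per kb), Agrn (8.66), Hspg2 (2.88), Npnt (0.361) and Egfl6 (0.00391). No neighbours in either order overlapped between libraries of that group. In 3A, Npnt libraries lay at 4.65 to 4.74 CPM per kb and Hspg2 libraries at 1.95 to 2.98. In Control, Npnt libraries lay at 0.321 to 0.416 and Hspg2 libraries at 2.56 to 3.51. Nephronectin mRNA per kilobase thus stood above perlecan mRNA in 3A and below it in Control.

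**Figure D1:**
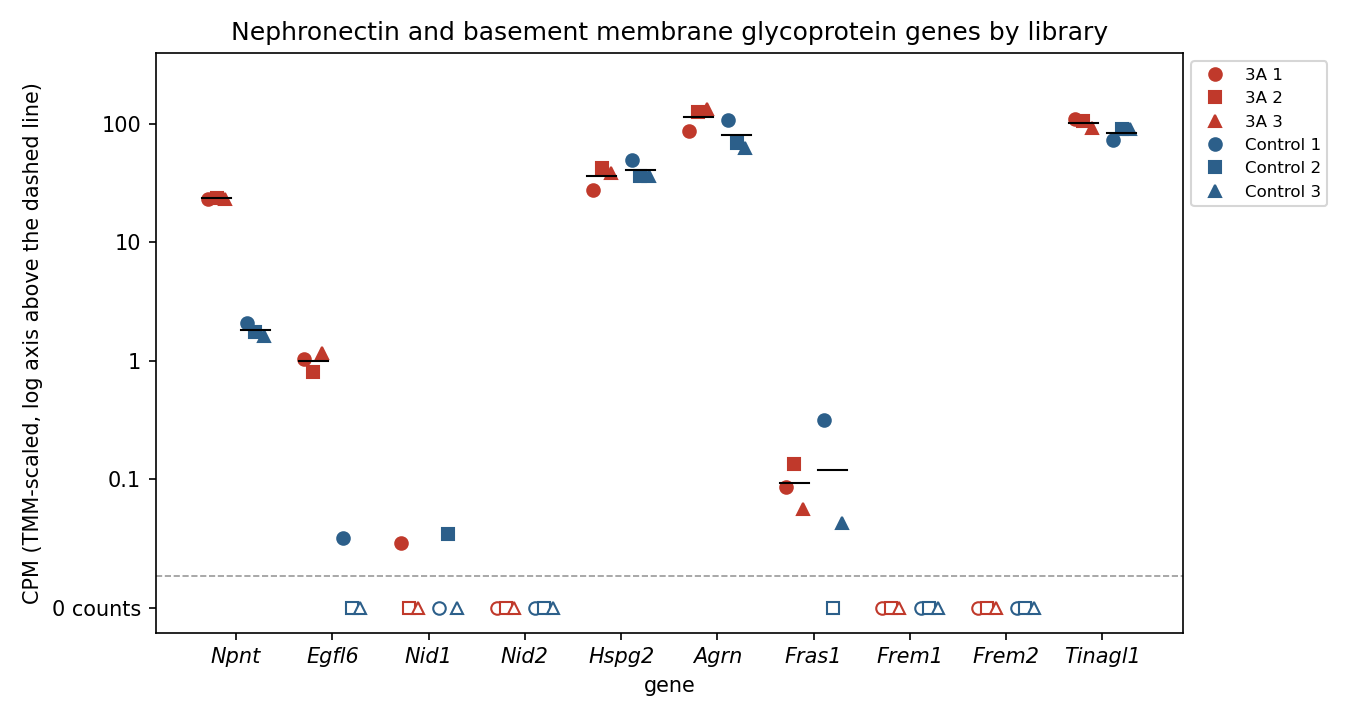
CPM of the 10 members in each library (log axis above the dashed line; open symbols below it mark 0 counts), with 3A in red left of Control in blue and bars at the mean of the 3 libraries. Npnt lies near 23 to 24 CPM in all 3A libraries and near 2 CPM in all Control libraries, Egfl6 near 1 CPM in 3A and at 0 or 1 count in Control, while Hspg2 and Agrn overlap between the groups.

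Npnt (ENSMUSG00000040998, chromosome 3, 132881745 to 132950291, minus strand, GRCm38) was the member with the clearest separation. It had 817, 893 and 840 counts in 3A 1, 2 and 3, against 66, 51 and 38 counts in Control 1, 2 and 3. On the CPM scale this was 23.4, 23.8 and 23.4 in 3A and 2.09, 1.74 and 1.61 in Control. In bulk RNA, more cells with a transcript and more transcript per cell cannot be told apart. The 3A libraries were nearly identical, and the highest Control library lay far below the lowest 3A library. The means were 23.5 ± 0.228 CPM in 3A and 1.82 ± 0.248 CPM in Control (SD, n = 3 each), a 12.96-fold ratio of means. The fitted log2 fold change was 3.69 (SE 0.18), and it lay between 3.61 and 3.81 when any 1 library was left out. Leaving out Control 1 gave the largest of these values. No stretch of 50 bases in the Npnt transcripts occurs in the annotated transcripts of another gene.

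Egfl6 (ENSMUSG00000000402, chromosome X, 166523007 to 166585720, minus strand), the paralog of Npnt, had the same direction at a much lower level. It had 36, 30 and 42 counts in 3A and 1, 0 and 0 counts in Control, which is 1.03, 0.799 and 1.17 CPM against 0.0317, 0 and 0 CPM. With 108 counts in 3A and 1 in Control, the ratio scaled for library size was 84.1, with a 95% exact binomial interval of 14.8 to 3352 that covers counting error only. The gene passed the low-count filter only through its 3A libraries. A Control library with 0 counts allows a level of up to 0.102 CPM in Control 2 and 0.127 CPM in Control 3 (3 counts of the scaled library). The longest run of letters shared by Npnt and Egfl6 transcripts was 12 bases, and 0.301% of the 50-base stretches of Egfl6 occurred in transcripts of another gene.

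Tinagl1 (ENSMUSG00000028776, chromosome 4, 130164454 to 130175122, minus strand) had 111, 105 and 92.5 CPM in 3A and 72.8, 90.9 and 90.6 CPM in Control. All 3A libraries were above all Control libraries, but 3A 3 exceeded Control 2 by less than the spread within either group. The means were 103 ± 9.44 CPM in 3A and 84.8 ± 10.3 CPM in Control (SD, n = 3 each), with a log2 fold change of 0.28 (SE 0.16). It lay between 0.19 and 0.36 when 1 library was left out.

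The proteoglycan genes overlapped between the groups. Agrn (ENSMUSG00000041936, chromosome 4, 156165290 to 156197488, minus strand) had 87.3, 126 and 134 CPM in 3A and 109, 69.0 and 62.9 CPM in Control. Control 1 lay among the 3A libraries, and 3A 1 lay between Control 1 and the other Control libraries. The log2 fold change of Agrn was 0.53 (SE 0.27) with all libraries, 0.83 without Control 1 and 0.70 without 3A 1. Hspg2 (ENSMUSG00000028763, chromosome 4, 137468769 to 137570630, plus strand) had 27.9, 42.6 and 38.7 CPM in 3A and 50.2, 36.6 and 36.7 CPM in Control. Its highest library was Control 1 and its lowest 3A 1, while the other 4 libraries lay close together. Its log2 fold change was -0.18 (SE 0.22) and ranged from -0.30 to 0.00060 when 1 library was left out, so its sign was not fixed.

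The linkers and the Fraser complex were at or near the limit of detection. Nid1 had 1 count in 3A 1, 1 count in Control 2 and 0 elsewhere. Nid2 had 0 counts in every library, as did Frem1 and Frem2, and 0 counts over the 6 libraries allow a level of up to 0.0156 CPM. Fras1 had 3, 5 and 2 counts in 3A and 10, 0 and 1 counts in Control, so that Control 1 held 10 of its 11 Control counts. The Fras1 ratio of 3A over Control was 0.708, with a 95% exact binomial interval of 0.270 to 1.84 for counting error only. Laminin γ1 (Lamc1), the chain that nidogens bind, had 36.6, 61.5 and 65.4 CPM in 3A and 90.2, 55.6 and 55.5 CPM in Control, with overlapping groups. Its log2 fold change was -0.30 with all libraries (edgeR adjusted p = 0.478), -0.02 without Control 1 and -0.07 without 3A 1. Some exons of 3 of these genes overlap genes on the other strand (Nid1 with Gm48682, Nid2 with Rtraf and Fras1 with Gm42604), and no source used here gives the strand setting of the counting.

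Across all 13704 tested genes, edgeR's quasi-likelihood test called 14.9% with an adjusted p threshold of 0.05: 7.52% were higher in 3A and 7.39% lower. Of the 5 tested members it called 2 higher, Npnt and Egfl6, and 0 lower. At an unadjusted p under 0.05 and by DESeq2, 0 members were lower, against 2485 and 1887 of all 13704 tested genes. The libraries of 3A and Control did not overlap for 3 of the 5, Npnt, Egfl6 and Tinagl1, all of them higher in 3A, against 36.1% of all tested genes (18.6% higher and 17.6% lower). The same contrast entered the choice of the members, so nothing is read from these counts. Without Control 1, 3 members were called, the third being Agrn, and 52% of all tested genes were called.

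**Figure D2:**
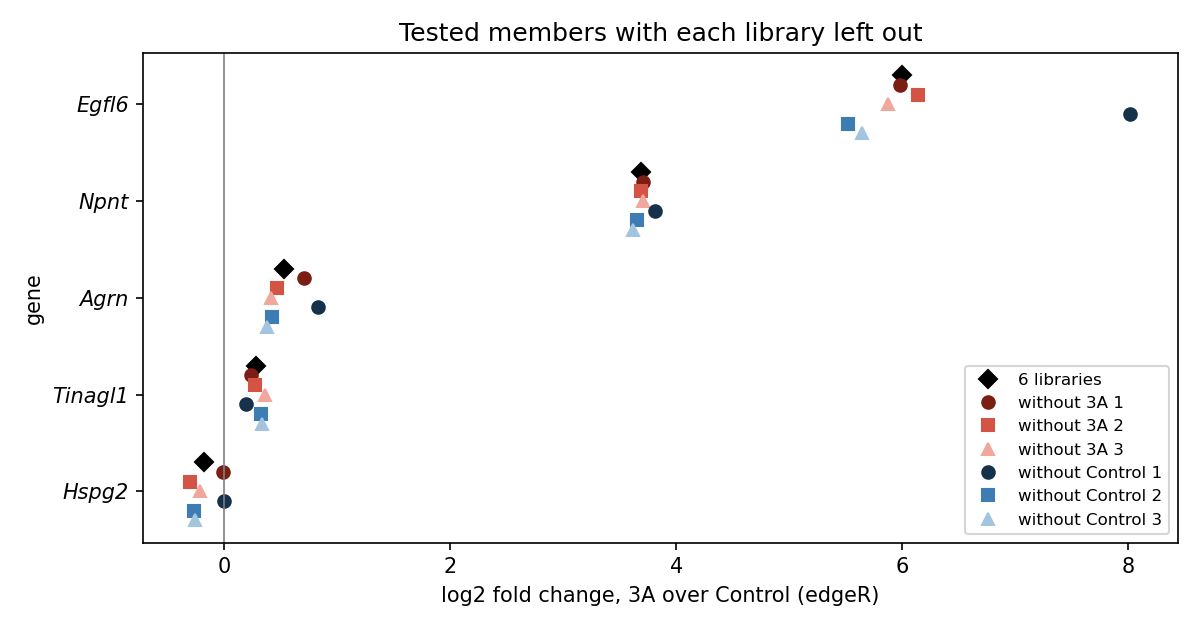
Log2 fold change of 3A over Control (edgeR) for the 5 tested members, with all 6 libraries (diamonds) and with each library left out. Npnt stays between 3.61 and 3.81 and Hspg2 lies around 0, while Egfl6, fitted against 1 Control count or none, moves with whether Control 1 is included and has no bounded fold there.

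The genes around Npnt and Egfl6 had smaller differences. Within 1 Mb of the Npnt start, 7 other genes were tested, with a median log2 fold change of -0.47 and a range of -0.65 to 0.58. Of these, edgeR called 1, Tbck, which was lower, against 15.8% of the other tested genes on chromosome 3 called in either direction. Within 1 Mb of the Egfl6 start, 7 other genes had a median of 0.09 and a range of -0.57 to 0.67. Of these, 0 were called, against 15% of the other tested genes on chromosome X. The median log2 fold change of the other tested genes was -0.12 over chromosome 3 (692 genes) and 0.14 over chromosome X (441 genes). Hspg2, Agrn, Frem1 and Tinagl1 all lie on chromosome 4, whose tested genes had a median of 0.06.

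**Figure D3:**
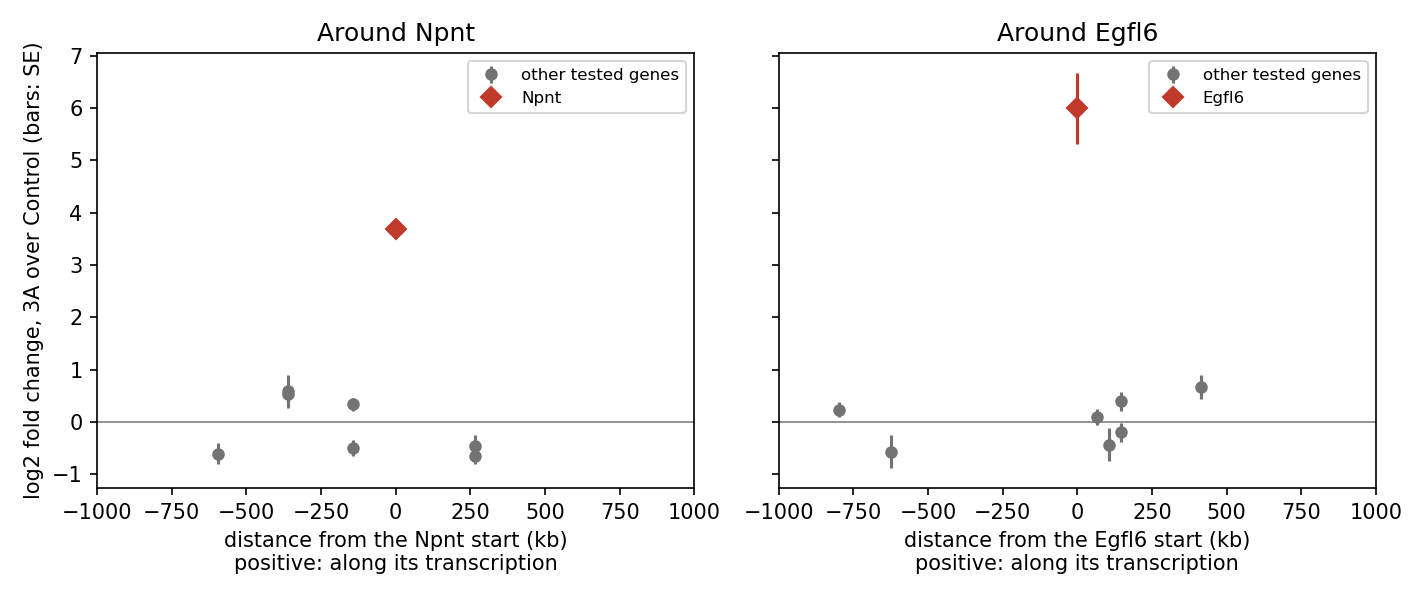
Log2 fold change of 3A over Control (points, with SE bars) against the distance in kb from the start of Npnt (left) and of Egfl6 (right), for tested genes within 1 Mb. The 7 neighbours in each panel lie between -0.65 and 0.67, and Npnt and Egfl6 stand alone at 3.69 and at a fitted value that rests on 1 Control count.

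Among 9654 other named genes with a mean of at least 5 CPM, the 5 whose log2 CPM followed Npnt most closely over the 6 libraries were Dock8 (Pearson r = 0.9999), Ckap2 (0.9992), Glipr2 (0.9989), Hnrnpa1 (0.9984) and Ddah1 (0.9983). Dock8 averaged 12.0 CPM in 3A and 1.72 CPM in Control. Ddah1, encoding an enzyme that breaks down methylated arginines, averaged 46.3 CPM in 3A and 6.41 CPM in Control. Hnrnpa1, a splicing regulator, differed by a log2 fold change of only 0.39, since r measures shape and not size. The libraries fall into the 2 groups, which also differ in depth, and 67 genes had an r above 0.99, so these values are a description.

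The genes that work with the glycoproteins were followed in 4 lists of 84 genes in all, of which 64 were tested. These lists too were written with earlier results known, and their p-values are adjusted over all 13704 genes. In the whole set 8 were higher and 8 lower in 3A, 25% of those tested, against 14.9% of all tested genes (7.52% higher and 7.39% lower), with a median log2 fold change of 0.23 against -0.02 over all tested genes. Of the 8 higher, 5 were called in each of the 6 fits that left out 1 library (Col4a1, Col15a1, Sulf1, Hs6st2 and Mmp3), and of the 8 lower 2 were (Bcam and Prss12). Col15a1 and Hs6st2 passed the low-count filter only through their 3A libraries, so their calls follow from the filter in part and support nothing here. Without Control 1, when 52% of all tested genes were called, 28 were higher and 13 lower. Without any other library, 5 to 6 were higher and 2 to 3 lower. Over all tested genes those fits called 346 to 640 higher and 318 to 654 lower, against 1031 and 1013 with all libraries.

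**Figure D4:**
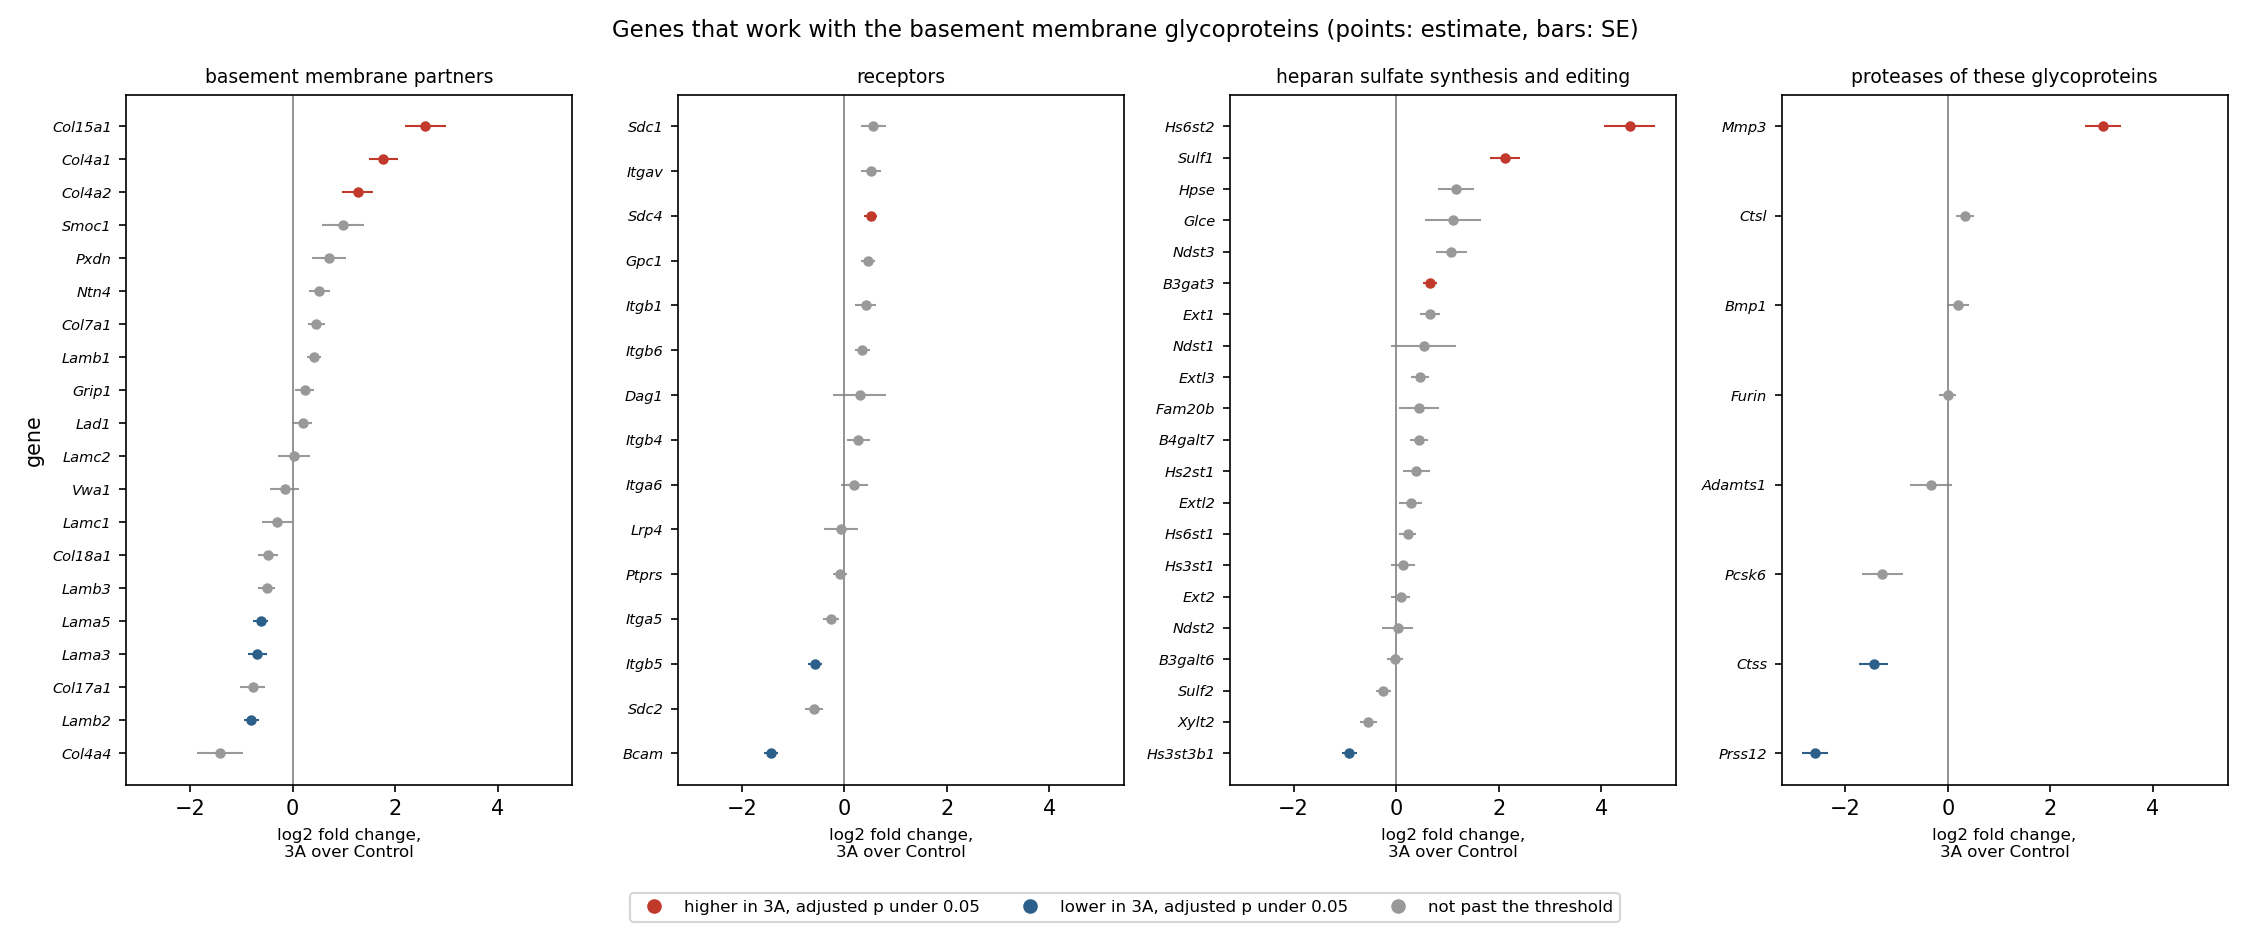
Log2 fold change of 3A over Control (points, with SE bars) for the 64 tested genes of 4 lists, with red points called higher and blue points called lower in 3A (adjusted p threshold 0.05). Each panel holds genes called in both directions, and most genes lie within 1 of 0.

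In the list of matrix partners, 3 of 20 tested genes rose and 3 fell, against 7.52% and 7.39% of all tested genes, with a median log2 fold change of 0.11. Col4a1, which encodes the α1 chain of type IV collagen, had 86.1, 129 and 140 CPM in 3A and 47.7, 29.1 and 27.3 CPM in Control (log2 fold change 1.77, edgeR adjusted p = 0.00841). Col4a2, its partner chain, rose by 1.27 on the log2 scale (edgeR adjusted p = 0.0341). The Col4a2 call was lost without 3A 2, 3A 3, Control 2 or Control 3 (edgeR adjusted p up to 0.138). Col15a1, a basement membrane collagen gene, averaged 1.28 CPM in 3A and 0.206 CPM in Control (log2 fold change 2.59). The laminin chain genes Lama5 (-0.63), Lama3 (-0.69) and Lamb2 (-0.80) fell, with edgeR adjusted p between 0.0162 and 0.0498. The calls of Lama5, Lama3 and Lamb2 were lost when any library other than Control 1 was left out (edgeR adjusted p up to 0.192). Fewer of all tested genes were also called in those fits, 346 to 640 higher and 318 to 654 lower. Grip1, the scaffold needed to deliver FRAS1 to the cell surface, had 9.64 CPM in 3A and 8.18 CPM in Control and was not called. Frem3 and Tinag, the remaining relatives of the members, had 0 counts. Without Control 1, 7 genes of this list were higher and 6 lower, with 52% of all tested genes called in that fit.

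Among receptors, 1 of 15 tested genes rose and 2 fell, 20% against 14.9% of all tested genes, with a median log2 fold change of 0.28. Leaving out Control 1 gave 7 higher and 3 lower receptor genes, in a fit that called 52% of all tested genes. Bcam, the Lutheran receptor for laminin α5, had 25.8, 27.6 and 24.1 CPM in 3A and 68.1, 73.8 and 67.8 CPM in Control (log2 fold change -1.43, edgeR adjusted p = 0.00125). The syndecan gene Sdc4 rose by 0.51 (edgeR adjusted p = 0.0410), and the integrin gene Itgb5 fell by 0.58 (edgeR adjusted p = 0.0309). Both calls were lost when any library other than Control 1 was left out (edgeR adjusted p up to 0.181 for Sdc4 and 0.166 for Itgb5). As above, those fits also called fewer of all tested genes. Itga8, the α partner of the α8β1 receptor of nephronectin, had 0, 2 and 1 counts in 3A and 2, 0 and 1 counts in Control. Its β partner Itgb1 had 665 ± 131 CPM in 3A and 500 ± 77.2 CPM in Control (SD, n = 3 each; log2 fold change 0.41, edgeR adjusted p = 0.196). Itgb1 was called higher once Control 1 was left out (0.56, edgeR adjusted p = 0.0323). Dag1, which encodes dystroglycan, a receptor for agrin and perlecan, had 52.4, 140 and 142 CPM in 3A and 159, 58.6 and 55.4 CPM in Control. As with Agrn, the values of Dag1 crossed the groups: 3A 1 lay with Control 2 and Control 3, and Control 1 with 3A 2 and 3A 3. The log2 fold change of Dag1 was 0.30 with all libraries (edgeR adjusted p = 0.705), 0.98 without Control 1 (0.0617) and 0.64 without 3A 1 (0.373). Of the agrin receptor genes known from muscle, Lrp4 had 0.551 CPM in 3A and 0.576 CPM in Control, and Musk had 0 counts.

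Among genes that build and edit heparan sulfate, the sugar chain of perlecan and agrin, 3 of 21 tested genes rose and 1 fell, 19% against 14.9% of all tested genes, with a median log2 fold change of 0.44. Sulf1, which encodes an extracellular enzyme that removes 6-O-sulfate, had 43.6, 71.6 and 74.2 CPM in 3A and 19.5, 11.9 and 12.1 CPM in Control (log2 fold change 2.12, edgeR adjusted p = 0.0047). Hs6st2, which encodes an enzyme that adds 6-O-sulfate, had 27, 52 and 52 counts in 3A and 2, 1 and 1 counts in Control. B3gat3, needed for the linker between protein and chain, rose by 0.66 (edgeR adjusted p = 0.0221, up to 0.13 with a library left out). Hs3st3b1, a 3-O-sulfotransferase gene, fell to 19.2 ± 1.52 CPM in 3A, against 36.1 ± 1.59 CPM in Control (SD, n = 3 each; log2 fold change -0.91, edgeR adjusted p = 0.00692). Its adjusted p was 0.0509 without 3A 3. Without Control 1, 12 genes of this list were higher and 2 lower, with 52% of all tested genes called in that fit.

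Among proteases known to cut these glycoproteins, 1 of 8 tested genes rose and 2 fell, 37.5% against 14.9% of all tested genes, with a median log2 fold change of -0.17. Leaving out Control 1 gave 2 higher and 2 lower protease genes, in a fit that called 52% of all tested genes. Prss12, which encodes neurotrypsin, a protease that cuts agrin, had 0.688, 0.879 and 0.585 CPM in 3A and 4.22, 4.37 and 4.46 CPM in Control (log2 fold change -2.59, edgeR adjusted p = 0.00134). Ctss, a cathepsin gene, fell by 1.45 (edgeR adjusted p = 0.0168, up to 0.0953 with a library left out). The riser was the stromelysin gene Mmp3 (log2 fold change 3.03, edgeR adjusted p = 0.00255). Furin, a proprotein convertase gene, had a log2 fold change near 0 (edgeR adjusted p = 0.997).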

How the data were processed

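RNA was sequenced from 3 libraries of 3A and 3 of Control cells. The authors deposited unnormalized whole-number read counts, 1 column per library, by Ensembl gene ID. The submitters' processing notes list Trim Galore, featureCounts, limma and edgeR, and as builds hg38, GRCh38 and mm10, with neither versions nor roles. Aligner, annotation release and strand setting are not stated there. Symbols and 1-based positions are those of GENCODE M21 on GRCm38, the same assembly as mm10, and 49056 of 49315 IDs matched.

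The test was edgeR's quasi-likelihood F test (edgeR 4.0.16, R 4.3.3) after filterByExpr and TMM scaling, with group as the single term and Benjamini-Hochberg adjustment over 13704 genes and a threshold of 0.05. CPM used TMM-scaled library sizes, also for genes that failed the filter. Levels per kb were CPM divided by the length of all annotated exons. Correlations used log2 CPM with a prior count of 1. A count of 0 was bounded at 3 counts, and ratios of low counts have 95% exact binomial intervals; both cover counting error only. The pipeline was tested on simulated counts.

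Alternatives were other scalings, other low-count filters, DESeq2 1.42.0, limma-voom (limma 3.58.1), a threshold of 0.01, the replicate number as a block, and each library left out. The members, the gene lists and the rule for names were chosen with earlier results of these data known. The rule named all members, up to 5 called genes per list by smallest p, listed binding partners and relatives (Frem3 and Tinag among them), and the 5 genes most like Npnt. Beyond it, Lama3, Musk, Furin, Tbck and Itga3 were chosen after their values were seen. Cell type markers came from separate lists, and Gm48682, Rtraf and Gm42604 were named for their exon overlap with members.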

Additional observations from a re-analysis of the deposited data

How the results depend on the processing

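Npnt kept its direction in all 15 alternatives, with log2 fold changes from 3.61 to 3.81. Members called higher stayed at 2, except for 1 of 4 tested with a minimum of 1 CPM in 3 libraries, which left Egfl6 untested, and 2 to 3 with a library left out. Members called lower were 0 under every alternative. The members were chosen with this contrast in view, and Egfl6 passed the filter only through its 3A libraries. These counts therefore describe the processing and support nothing about the members.

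Over all genes, 1031 were called higher and 1013 lower. DESeq2 called 1678 and 1887, an adjusted p under 0.01 gave 364 and 352, and leaving out 1 library gave 346 to 3751 and 318 to 3690, the most without Control 1. Of the 64 tested partner, receptor, heparan sulfate and protease genes 8 were called higher and 8 lower. DESeq2 called 14 and 14, an adjusted p under 0.01 gave 5 and 3, scaling by library size alone or no low-count filter gave 5 lower each, and leaving out 1 library gave 5 to 28 higher and 2 to 13 lower.

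With the replicate number as a block, 142 genes were higher and 146 lower, with 2 and 2 of these 64 genes and the same 2 members. Same-numbered libraries deviated in opposite directions (r of -0.66, -0.42 and -0.38 for numbers 1, 2 and 3, across genes). So did 3A 2 with Control 3 (-0.415) and 3A 3 with Control 2 (-0.303). The r was positive (0.439 to 0.537) for 3A 1 with Control 2 or 3 and for Control 1 with 3A 2 or 3. Deviations from a mean of 3 libraries are tied to each other, so these values cannot decide whether the numbers pair the samples. Depth limits Nid1, Nid2, Fras1, Frem1, Frem2 and the Control level of Egfl6.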
